A study of Mus musculus with 8 samples.

Results

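Monocyte-derived and lipid-associated macrophage markers were followed in the livers of mice that lost actin capping protein in hepatocytes. The set is a fixed list of 10 gene symbols, Trem2, Gpnmb, Cd9, Cx3cr1, Ccr2, Itgax, Itgam, Lgals3, Ms4a7 and Ly6c2, and all 10 were found among the 24421 symbols of the count table. The WT group (4 libraries) held Capzb-fl/fl mice given tamoxifen or Albumin-CreERT2;Capzb-fl/fl mice left uninjected, and the CAPZ_KO group (4 libraries) held Albumin-CreERT2;Capzb-fl/fl mice given tamoxifen. Every animal therefore carried the floxed Capzb alleles, and which WT library came from which kind of control is not given in the labels, so that tamoxifen and deletion cannot be told apart. All were C57BL/6N adults of 8 to 10 weeks, first dosed, where dosed, at 4 to 6 weeks. Cre was driven by the albumin promoter, which is active in hepatocytes and not in macrophages. RNA came from a piece of perfused liver.

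Macrophages of the adult liver fall into resident Kupffer cells, which maintain themselves, and cells that arise from circulating monocytes after injury. Ly6C-high monocytes leave the bone marrow through the chemokine receptor CCR2 and are drawn to its ligand CCL2, and as they mature they lower Ly6C and raise CX3CR1, the receptor of fractalkine. Macrophages that take up lipid and cell debris can then adopt a lipid-associated state marked by TREM2, a receptor for lipids and lipoproteins that signals through the adapter TYROBP, and by the glycoprotein GPNMB and the tetraspanin CD9. None of these genes is strictly confined to macrophages. Cd9 and Lgals3 are also expressed by epithelial and mesenchymal cells, Itgam by neutrophils and NK cells, Itgax by dendritic cells, and Ly6c2 and Cx3cr1 by some lymphocytes.

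The libraries held 12060350 to 18916315 counts in WT and 13122355 to 16984971 in CAPZ_KO, of which the 10 markers took 602 to 1124 and 4331 to 6677 counts. Capzb, the deleted gene, was lower in all CAPZ_KO libraries than in all WT libraries (log2 fold change −0.73 ± 0.125 SE, edgeR adjusted p = 0.00134). With library sizes alone its log2 change was −0.10 with an adjusted p of 0.442. Library 4 of each group came from a female, with 5419 and 4067 counts of Xist against 0 to 6 in the other libraries. Hepatocyte markers ran the other way from the 10 genes. Of the 9 that were tested, 8 fell (median log2 change −1.84), and their summed level was 170095 to 215145 CPM in WT and 39133 to 60089 in CAPZ_KO. In whole tissue, fewer cells of a type and less RNA per cell cannot be told apart.

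The 250 bases before the RefSeq transcription start (GRCm38.p6) are shown for the 2 genes that mark the lipid-associated state most closely, Trem2 and Gpnmb, for Itgax, whose window matched GGAAGT and TGANTCA below, and for Ly6c2 beside its near copy Ly6c1. Promoters of all 10 genes were found in the RefSeq table. Capitals mark matches on either strand to GGAAGT, the core bound by PU.1 and other ETS factors of myeloid cells, to TGANTCA, the AP-1 motif, or to CANGTG, an E-box of the kind bound by MITF and TFE factors. These motifs did not overlap in the windows printed.
Trem2, chr17:48346151-48346400, plus strand: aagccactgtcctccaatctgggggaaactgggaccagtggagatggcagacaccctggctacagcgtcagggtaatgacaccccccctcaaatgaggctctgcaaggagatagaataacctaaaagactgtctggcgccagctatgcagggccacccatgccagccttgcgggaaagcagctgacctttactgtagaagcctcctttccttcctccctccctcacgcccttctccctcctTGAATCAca
Gpnmb, chr6:49036268-49036517, plus strand: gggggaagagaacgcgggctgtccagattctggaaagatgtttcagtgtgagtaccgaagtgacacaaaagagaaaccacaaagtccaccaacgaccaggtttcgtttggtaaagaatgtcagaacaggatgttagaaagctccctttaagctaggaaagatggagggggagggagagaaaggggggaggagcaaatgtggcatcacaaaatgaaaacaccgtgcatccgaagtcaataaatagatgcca
Itgax, chr7:128129300-128129549, plus strand: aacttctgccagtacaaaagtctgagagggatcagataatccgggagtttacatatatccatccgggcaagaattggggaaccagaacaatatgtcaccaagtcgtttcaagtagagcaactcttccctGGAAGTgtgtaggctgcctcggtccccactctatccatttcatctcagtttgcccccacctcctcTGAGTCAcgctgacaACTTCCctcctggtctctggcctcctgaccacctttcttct
Ly6c2, chr15:75111972-75112221, minus strand: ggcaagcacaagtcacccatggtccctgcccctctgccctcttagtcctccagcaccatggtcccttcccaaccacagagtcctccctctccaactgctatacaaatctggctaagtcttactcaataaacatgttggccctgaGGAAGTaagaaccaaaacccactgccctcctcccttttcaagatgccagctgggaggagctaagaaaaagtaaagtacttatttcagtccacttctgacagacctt
Ly6c1, chr15:75048838-75049087, minus strand: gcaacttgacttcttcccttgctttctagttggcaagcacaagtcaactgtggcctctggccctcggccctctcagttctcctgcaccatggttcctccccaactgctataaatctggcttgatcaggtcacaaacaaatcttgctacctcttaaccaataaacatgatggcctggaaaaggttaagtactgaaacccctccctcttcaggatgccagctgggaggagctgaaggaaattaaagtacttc

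The GGAAGT core was present in 3 of the 10 windows (Itgax, Ms4a7 and Ly6c2), as in 5401 of 27025 RefSeq promoters of the same length. TGANTCA was present in 2 (Trem2 and Itgax) against 6.87%, and CANGTG in 3 (Cd9, Ccr2 and Lgals3) against 39.4%. Gpnmb, Cx3cr1 and Itgam held none of these letters in this window. The Ly6c1 and Ly6c2 windows, taken with 50 bases past the start, matched at 82.3% of 260 aligned bases, and only the Ly6c2 window carried a GGAAGT match.

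Of the 10 markers, 9 rose in CAPZ_KO and 0 fell at an edgeR adjusted p under 0.05, with Ly6c2 the exception. Among all 12985 genes tested, 22.4% rose and 19.0% fell by this rule. The 10 markers had a median log2 fold change of 2.15, against −0.003 over all tested genes. In 8 of the 10, all except Ms4a7 and Ly6c2, every CAPZ_KO library lay above every WT library, as in 22.1% of tested genes. Of the 10, 4 (Trem2, Gpnmb, Cx3cr1 and Itgax) were under the expression filter in at least 1 WT library and entered the test through the CAPZ_KO group, so that the counts describe the list and are not support for it.

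**Figure D1:**
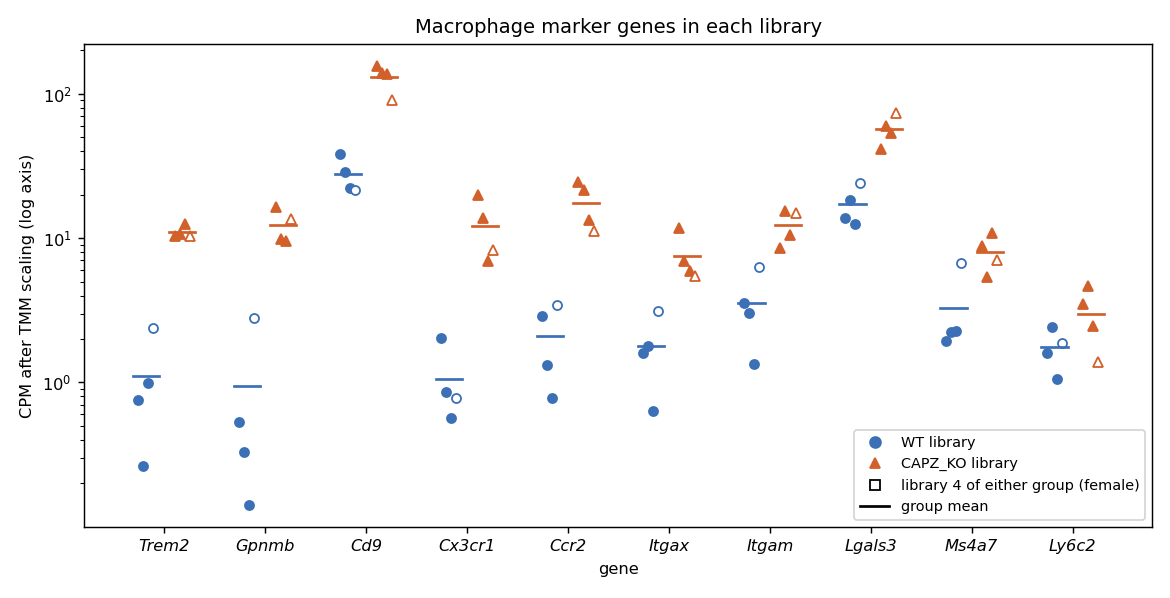
Level of each marker gene in each library, in CPM (counts relative to the TMM-scaled library, log axis). Circles are WT and triangles CAPZ_KO libraries, open symbols are library 4 of each group, and bars are group means; only Ms4a7 and Ly6c2 have groups that overlap.

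Trem2, the lipid receptor of lipid-associated macrophages (chromosome 17, 48346401 to 48354147, plus strand), was at 0.751, 0.263, 0.994 and 2.40 CPM in WT 1 to 4 and at 10.4, 10.7, 12.5 and 10.4 CPM in CAPZ_KO 1 to 4. The WT values rested on 4 to 37 counts a library and the CAPZ_KO values on 203 to 230. The CAPZ_KO libraries were close to each other, while WT 4 was the highest of its group. The mean was 1.10 ± 0.917 CPM in WT and 11.0 ± 1.00 in the CAPZ_KO group (SD, n = 4), higher by 3.28 ± 0.458 on the log2 scale (SE, adjusted p = 4.43e-04 in edgeR), and 4.04 without WT 4.

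Gpnmb, a transmembrane glycoprotein of lysosome-rich phagocytes (chromosome 6, 49036546 to 49070929, plus strand), had the highest fitted change of the set with all libraries, close to that of Cx3cr1, which was above it when WT 1, WT 2, WT 3, CAPZ_KO 3 or CAPZ_KO 4 was left out. It stood at 0.536, 0.329, 0.142 and 2.79 CPM in WT and at 16.4, 9.86, 9.62 and 13.7 CPM in CAPZ_KO. WT 4 held 43 counts of the 55 found in the WT group, and the groups still did not overlap. This was a change of 3.64 ± 0.659 on the log2 scale (SE, adjusted p = 0.0022 in edgeR), and 5.26 without WT 4.

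Cd9, a tetraspanin that organises membrane proteins at the cell surface (chromosome 6, 125460266 to 125494791, minus strand), was at 38.5, 28.6, 22.4 and 21.6 CPM in WT and at 156, 138, 137 and 91.0 CPM in CAPZ_KO. It was the most abundant of the 10 genes, and its lowest CAPZ_KO library, CAPZ_KO 4, stood well above the highest WT library. On the log2 scale the change was 2.24 ± 0.227 (SE, adjusted p = 7.58e-05 in edgeR). Lgals3, galectin-3, a lectin secreted by activated macrophages (chromosome 14, 47367751 to 47386160, plus strand), went from 13.8, 18.3, 12.6 and 23.9 CPM to 41.7, 59.6, 53.2 and 73.3 CPM. Its groups were apart by a wide margin, and its log2 change was 1.73 ± 0.234 (SE, adjusted p = 3.58e-04 in edgeR).

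The chemokine receptors of monocytes rose about as much as the lipid-associated pair. Cx3cr1, the fractalkine receptor (chromosome 9, 119901616 to 120069879, minus strand), was at 2.04, 0.855, 0.568 and 0.778 CPM in WT and at 19.7, 13.7, 6.89 and 8.23 CPM in CAPZ_KO, higher by 3.59 ± 0.460 on the log2 scale (SE, adjusted p = 2.88e-04 in edgeR). Ccr2, the receptor of CCL2 (chromosome 9, 124101950 to 124113557, plus strand), was at 2.90, 1.32, 0.781 and 3.44 CPM in WT and at 24.4, 21.5, 13.2 and 11.2 CPM in CAPZ_KO, higher by 3.08 ± 0.440 on the log2 scale (SE, adjusted p = 5.47e-04 in edgeR). For both receptors CAPZ_KO 1 was the highest library and CAPZ_KO 2 the next, and CAPZ_KO 3 and CAPZ_KO 4 were the lower pair.

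The integrin alpha chains of myeloid cells pair with the common beta chain ITGB2. Itgax, which encodes CD11c (chromosome 7, 128129547 to 128150657, plus strand), was at 1.61, 1.78, 0.639 and 3.11 CPM in WT and at 11.7, 6.92, 5.93 and 5.42 CPM in CAPZ_KO, higher by 2.05 ± 0.420 on the log2 scale (SE, adjusted p = 0.00352 in edgeR). Itgam, which encodes CD11b (chromosome 7, 128062640 to 128118491, plus strand), was at 3.54, 3.03, 1.35 and 6.29 CPM in WT and at 8.52, 15.5, 10.5 and 14.9 CPM in CAPZ_KO, higher by 1.79 ± 0.393 on the log2 scale (SE, adjusted p = 0.00514 in edgeR). CAPZ_KO 1, the highest library for Itgax, was the lowest CAPZ_KO library for Itgam. In GENCODE vM21 the gene model Gm49368 shares 3450 exonic bases of the same strand with Itgam, and 66.3% of the 50-base windows of Itgam transcripts also occur in it, so that the Itgam count depends on how the authors' annotation divided such reads. Of the Itgax windows, 8.02% also occur in Itgad, a neighbouring integrin gene. Itgb2 itself rose from 23.1 ± 8.94 CPM to 64.6 ± 21.3 (SD, n = 4), by 1.48 ± 0.301 on the log2 scale (SE, adjusted p = 0.00362 in edgeR).

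Ms4a7, a tetraspan membrane protein found on macrophages that derive from monocytes (chromosome 19, 11321039 to 11336146, minus strand), changed less. It was at 1.93, 2.24, 2.27 and 6.68 CPM in WT and at 8.83, 5.38, 10.8 and 7.004 CPM in CAPZ_KO, so that WT 4 lay above CAPZ_KO 2. It rose by 1.26 ± 0.405 (SE) on the log2 scale, at an edgeR adjusted p of 0.0305, which became 0.0636 to 0.0803 when WT 1, WT 2, WT 3, CAPZ_KO 1 or CAPZ_KO 3 was left out, and the change was 1.88 without WT 4.

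Ly6c2, the surface antigen of newly recruited monocytes (chromosome 15, 75108158 to 75111970, minus strand), was not called. It was at 1.61, 2.43, 1.06 and 1.88 CPM in WT and at 3.51, 4.63, 2.48 and 1.38 CPM in CAPZ_KO. CAPZ_KO 4 fell inside the WT range, while CAPZ_KO 1 to 3 were above it. This was a change of 0.77 ± 0.393 on the log2 scale (SE, adjusted p = 0.139 in edgeR), and 1.01 with an adjusted p of 0.041 without CAPZ_KO 4. Its near copy Ly6c1, which endothelial cells also express, rose from 0.661 ± 0.125 CPM in WT to 2.33 ± 0.839 (SD, n = 4), by 1.80 ± 0.347 on the log2 scale (SE, adjusted p = 0.00249 in edgeR). Of the 50-base windows of Ly6c2 transcripts, 14.4% also occur in transcripts of other genes, Ly6c1 foremost, so that the division of reads between the pair is uncertain.

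**Figure D2:**
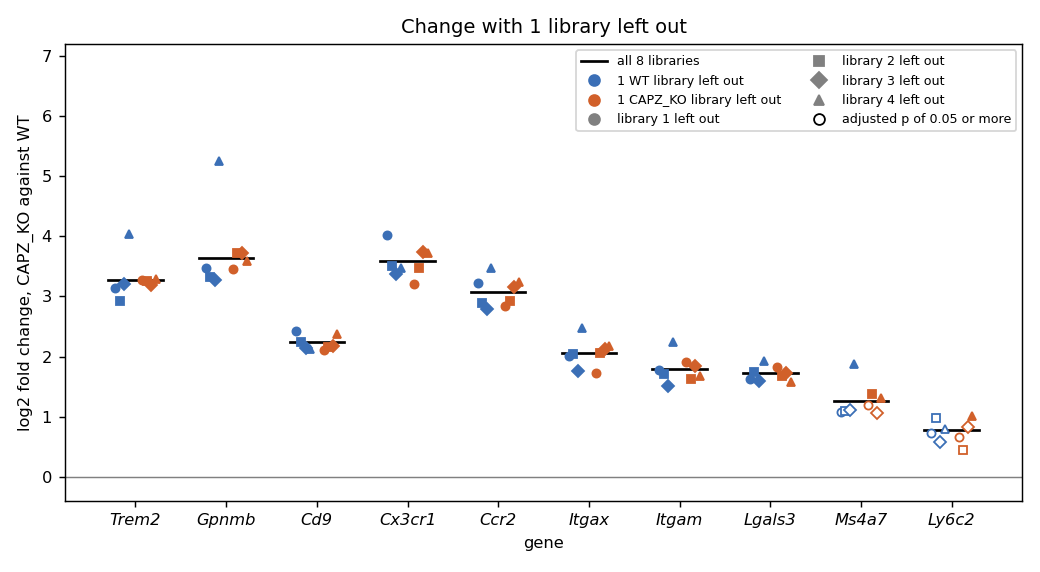
The log2 fold change of each marker (CAPZ_KO against WT) with all 8 libraries (black bars) and with each library left out (blue, a WT library; orange, a CAPZ_KO library; symbol shape gives the library number). Open symbols have an edgeR adjusted p of 0.05 or more and occur for Ms4a7 and Ly6c2 only; the points for WT 4 stand apart for Trem2, Gpnmb and Ms4a7.

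Library 4 of the WT group was the highest WT library for 7 of the 10 markers, and WT 3 was the lowest for 7. In CAPZ_KO no library led throughout, with CAPZ_KO 1 highest for 5 markers and CAPZ_KO 4 lowest for 4. Both library 4s were female, and without them 9 of the markers rose. Trem2, Gpnmb and Ms4a7 then had log2 fold changes of 4.07, 5.21 and 1.94. With sex as a term in the fit 9 markers rose as well.

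Per kilobase of exon (RPKM, from GENCODE exon lengths), Cd9 was at 63.8 ± 13.6 and Lgals3 at 30.6 ± 7.09 in CAPZ_KO (SD, n = 4), without overlap between the 2 genes. The other 8 lay far lower, from 1.10 ± 0.509 for Ly6c2 to 2.69 ± 1.30 for Cx3cr1 (SD, n = 4), in the order Ly6c2, Itgax, Ms4a7, Gpnmb, Trem2, Itgam, Ccr2 and Cx3cr1, in which each gene's libraries overlapped in level with those of the next. In WT, Cd9 and Lgals3 were at 13.6 ± 3.82 and 9.23 ± 2.77 RPKM (SD, n = 4) with overlapping libraries, and the others were at 0.146 to 0.736.

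General macrophage markers rose too, by less. Among 12 pan-macrophage genes 10 rose and 0 fell (median log2 change 1.13), and their summed level was 716 to 1379 CPM in WT and 1782 to 2761 in CAPZ_KO. C1qa and C1qb, subunits of complement C1q, had log2 fold changes of 1.02 and 1.14, Mpeg1, a pore-forming protein of phagocytes, 1.23 and Tyrobp, the TREM2 adapter, 1.14 (adjusted p = 0.00116, 0.00176, 0.00142 and 0.00249 in edgeR). Adgre1, which encodes F4/80 and was chosen after its values were seen, had 0.83 ± 0.329 (SE, adjusted p = 0.0682 in edgeR), with an adjusted p of 0.0294 without CAPZ_KO 1, 0.0445 with sex as a term, 0.0478 with upper quartile scaling, 0.00408 with library sizes alone and 0.0311 in DESeq2. Of 10 Kupffer cell markers, 4 rose (median 0.92), with summed levels of 695 to 1596 CPM in WT and 1183 to 3673 in CAPZ_KO that overlapped. Id3, Folr2, Vsig4 and Cd5l had log2 fold changes of 1.12, 1.14, 1.21 and 1.14. The edgeR adjusted p of Folr2, 0.0177, became 0.0509 and 0.053 without WT 2 and CAPZ_KO 2. Those of Vsig4 and Cd5l, 0.0365 and 0.0442, passed 0.05 when most single libraries were left out. With 1 library left out, 1 to 5 Kupffer cell markers were called in either direction, the fewest without CAPZ_KO 2. Of the 2 called without WT 2, 1 was lower in CAPZ_KO, as was 1 of the 6 called by DESeq2. The defining markers Clec4f and Timd4, chosen likewise, had 0.54 and 0.72 (adjusted p = 0.106 and 0.35 in edgeR), and Clec4f had an adjusted p of 0.0031 with library sizes alone. None of the pan-macrophage or Kupffer cell markers was at 0.

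To set each marker against the macrophage RNA of its own library, the test was repeated with the summed count of the 12 pan-macrophage genes as the scale, a comparison added after the data were seen. On this scale 6 of the 10 markers rose and 0 fell, against 3.96% of all tested genes that rose, and the median over all tested genes was −1.13. Trem2, Gpnmb, Cx3cr1 and Itgax, which entered the test through the CAPZ_KO group, were among the 6. This count too describes the list and is not support for it. Per 1000 summed pan-macrophage CPM, Trem2 went from 0.999 ± 0.622 to 4.92 ± 1.22 CPM, Gpnmb from 0.796 ± 0.858 to 5.64 ± 2.44, Cx3cr1 from 1.17 ± 1.12 to 5.65 ± 3.74 and Ccr2 from 2.10 ± 1.49 to 8.08 ± 4.09 (SD, n = 4), each with all CAPZ_KO libraries above all WT libraries. Their log2 fold changes were 2.29 ± 0.440, 2.75 ± 0.618, 2.46 ± 0.577 and 2.01 ± 0.480 (SE), and the adjusted p in edgeR was 1.49e-04, 0.00167, 0.00181 and 0.00154. Without WT 4 the value of Gpnmb was 4.09, and without WT 1 that of Cx3cr1 was 3.19. The share of all tested genes with every CAPZ_KO library above every WT library was not counted on this scale, nor was the share that fell.

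Cd9 and Itgax were also called on the macrophage scale, at 1.06 ± 0.375 and 1.10 ± 0.433 (SE, adjusted p = 0.0156 and 0.0274 in edgeR), with groups that overlapped. Without CAPZ_KO 1 their adjusted p was 0.0654 and 0.19, and that of Itgax was 0.0524 and 0.102 without WT 2 and WT 3. Genes of other cells rose on this scale as well. Of 7 cholangiocyte genes 4 rose (Spp1, Epcam, Sox9 and Cftr) and 1 fell, and of 10 stellate cell and fibroblast genes 2 rose and 2 fell. A rise on this scale therefore does not show which cells it came from. Lgals3 had all CAPZ_KO libraries above all WT libraries, with 24.6 ± 2.05 against 16.1 ± 2.93 CPM per 1000 (SD, n = 4). Its change was 0.61 ± 0.279 on the log2 scale (SE, adjusted p = 0.0521 in edgeR). The edgeR adjusted p was 0.0212 without WT 1, 0.0384 with sex as a term and 0.0445 with non-robust dispersion. It was 0.0335 with Csf1r, Cd68 and Tyrobp left out of the scale. Itgam was at 0.68 ± 0.363 (SE, adjusted p = 0.0941 in edgeR), with an adjusted p of 0.0264 and 0.0398 without WT 1 and WT 4. Ms4a7 and Ly6c2 had 0.33 ± 0.388 and −0.28 ± 0.433 (SE, adjusted p = 0.457 and 0.574 in edgeR). With the summed Kupffer cell markers as the scale, 6 markers rose, against 3.87% of tested genes, and all 6 were among those called per pan-macrophage count. The same limit of the expression filter holds for this count.

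**Figure D3:**
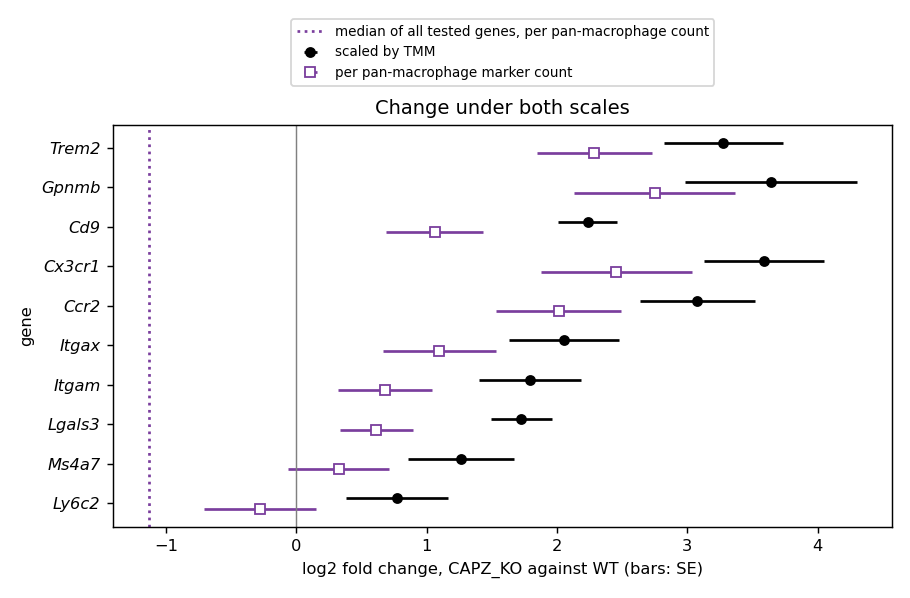
The log2 fold change (CAPZ_KO against WT, bars are SE) of each marker scaled by TMM (filled circles) and per summed pan-macrophage count (open squares), with the median of all tested genes on the second scale as a dotted line. Trem2, Gpnmb, Cx3cr1 and Ccr2 lie at 2.01 or more on both scales, and Ly6c2 lies below 0 on the macrophage scale.

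TREM2 signals through TYROBP to the kinase SYK, and its ectodomain is shed by the proteases ADAM10 and ADAM17. In this pathway 8 of 9 genes rose and 0 fell (median log2 change 1.07). Per pan-macrophage count, a scale that includes Tyrobp, 0 of them rose and 1 fell. Their median there was −0.05, against −1.13 over all tested genes. Inpp5d, the phosphatase SHIP1 that dampens the signal, rose by 1.44, Syk by 1.02, the phospholipase gene Plcg2 by 1.19 and Adam10 by 0.98 (adjusted p = 1.54e-04, 0.00245, 0.00238 and 5.87e-04 in edgeR). Adam17, chosen after its values were seen, had 0.33 (adjusted p = 0.0762 in edgeR).

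Among 18 other genes tied to the lipid-associated state, 4 rose and 6 fell per pan-macrophage count, a scale that includes Cd68 of this list. Their median there was −0.18, against −1.13 over all tested genes, whose share that fell was not counted. With TMM scaling, 10 of the 18 rose and 2 fell, with a median of 0.90. Cd63, a lysosomal tetraspanin, rose by 3.70 ± 0.268 (SE), Mmp12, the macrophage elastase, by 4.85 ± 0.789 (SE) from 0.642 ± 0.681 to 19.9 ± 11.5 CPM (SD, n = 4), Spp1, osteopontin, by 4.32 and Cstb, a cathepsin inhibitor, by 1.98 (adjusted p = 1.35e-05, 0.00148, 4.8e-05 and 1.66e-05 in edgeR). Mmp12 had 5.86 without WT 4. Bile duct cells also express Spp1. Lpl, Fabp5 and Apoe were chosen after their values were seen. Lpl, lipoprotein lipase, rose by 2.27, while Fabp5, a fatty acid carrier, fell by 2.62 and Apoe fell by 0.60 (adjusted p = 0.00188, 0.00671 and 0.014 in edgeR). Apoe, at 20270 ± 875 CPM in the WT libraries and 13346 ± 1911 CPM in the others (SD, n = 4), is made mainly by hepatocytes, and had 0.016 with library sizes alone.

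With TMM scaling, ligands that recruit monocytes rose with their receptors. Of 9 ligand and growth factor genes tested out of 12, 7 rose and 0 fell, with a median of 1.43. With 1 library left out, 5 or 6 were called, and 4 at an edgeR adjusted p under 0.01. Per pan-macrophage count, 2 of the 9 rose and 1 fell, with a median of 0.37. Ccl2, the ligand of CCR2, was at 5.90, 3.09, 1.14 and 2.46 CPM in WT and at 27.3, 37.3, 18.02 and 14.2 CPM in CAPZ_KO, higher by 2.99 ± 0.464 on the log2 scale (SE, adjusted p = 9.31e-04 in edgeR). Cx3cl1, fractalkine, was at 0.930 ± 0.337 and 4.17 ± 0.973 CPM (SD, n = 4) and rose by 2.16 (adjusted p = 7.48e-04 in edgeR). Ccl3, a ligand of CCR1, rose by 1.91 and Icam1, the endothelial ligand of leukocyte integrins, by 1.47 (adjusted p = 0.00404 and 8.96e-04 in edgeR). Csf1, the macrophage growth factor, chosen after its values were seen, had 0.03 ± 0.363 (SE, adjusted p = 0.96 in edgeR). Of 8 receptors, 1 rose and 0 fell per pan-macrophage count, a scale that includes the receptor gene Csf1r. With TMM scaling, 8 rose, with a median of 1.46. Ccr1 rose by 3.43, Csf2ra, a receptor chain of GM-CSF, by 1.56 and Itgal by 1.06 (adjusted p = 3.84e-04, 4.96e-04 and 0.00106 in edgeR).

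Of 14 other monocyte genes, 3 rose and 0 fell per pan-macrophage count, with a median of 0.16. With TMM scaling, 10 rose and 0 fell, with a median of 1.33. F13a1, coagulation factor XIII A, rose by 3.19, Cd44, a hyaluronan receptor, by 1.55 and Fcgr4, an Fc receptor, by 1.38 (adjusted p = 8.1e-04, 2.75e-04 and 8.96e-04 in edgeR), besides Ly6c1. Of 9 transcription factors of myeloid cells, 2 rose and 3 fell. Spi1, which encodes PU.1, rose by 1.57 and Irf8 by 1.18, while Cebpa and Cebpb, which hepatocytes express strongly, fell by 1.22 and 1.14 (adjusted p = 7.82e-04, 8.37e-04, 2.61e-04 and 0.00264 in edgeR). Cebpb, chosen after its values were seen, had an adjusted p of 0.0568 with library sizes alone.

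Members of the same gene families were read beside the markers. Of 8 Ms4a genes tested, 5 rose, with Ms4a6d at 1.43 and Ms4a6b at 0.88 (adjusted p = 0.00124 and 0.00524 in edgeR), and 2 were called without WT 3 and 3 without CAPZ_KO 2. Of 2 Trem genes tested, Treml4 rose by 1.33 (adjusted p = 0.00274 in edgeR) and Treml2 had 0.90 (adjusted p = 0.0644 in edgeR). Of 11 tetraspanins 8 rose and 1 fell, of 4 Ly6 genes 3 rose, of 5 galectins 2 rose and 1 fell, and of 7 leukocyte integrins tested, Itgam and Itgax included, 5 rose. Lgals1, a galectin of mesenchymal cells and macrophages, rose by 3.10 (adjusted p = 6.27e-05 in edgeR).

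Markers of other cells that can carry some of the 10 genes were read in the same libraries. Of 10 neutrophil genes, 4 rose (Mpo, Csf3r, Mmp8 and Cxcr2), with a median of 1.46 and summed levels of 11.2 to 43.7 CPM in WT and 38.04 to 68.4 in CAPZ_KO that overlapped. Without CAPZ_KO 4 only 2 were called, and without WT 4 there were 9. Of 7 dendritic cell genes, 3 rose (Batf3, Siglech and Flt3), with summed levels of 6.03 to 11.2 and 9.37 to 13.9 CPM, and without CAPZ_KO 2 there was 1. Of 4 NK cell, 7 T cell and 5 B cell genes tested, 0 were called by edgeR, 0 had an unadjusted p under 0.05 and 0 were called by DESeq2, and their summed levels overlapped between the groups (2.56 to 16.1 and 7.26 to 11.3, 6.60 to 20.03 and 11.9 to 19.98, and 2.77 to 14.3 and 2.97 to 15.3 CPM). Of 8 sinusoidal endothelial genes 2 rose, with sums of 313 to 493 and 379 to 614 CPM, and without any of WT 1, WT 3, WT 4, CAPZ_KO 2 or CAPZ_KO 3 there was 1. Without CAPZ_KO 4 there were 2 calls, of which 1 was lower in CAPZ_KO.

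Of 10 stellate cell and fibroblast genes 7 rose (median 1.30), with sums of 409.9 to 477.7 CPM in WT and 942 to 1406 in CAPZ_KO. Of 7 cholangiocyte genes 4 rose (median 3.005), with sums of 42.7 to 79.6 and 367 to 1087 CPM. Most of this CAPZ_KO sum was Spp1, at 604 ± 321 CPM (SD, n = 4), a gene also in the lipid-associated list. Epcam, Sox9 and Cftr rose as well, from means of 1.04, 1.16 and 0.156 CPM to 8.30, 14.6 and 1.29. CAPZ_KO 1 was the highest library for the stellate cell and cholangiocyte sums, as it was for Cd9, Gpnmb, Cx3cr1, Ccr2 and Itgax. It had the lowest pan-macrophage sum of its group. Cd9 and Lgals3 can come from either cell type, and the part of these cells in the rise of the 10 markers was not tested. The single erythroid gene tested, Alas2, was at 16.2 to 142 CPM in WT and 7.42 to 12.2 in CAPZ_KO and fell by 2.82 (adjusted p = 0.00469 in edgeR). The globin genes Hba-a1 and Hbb-bs were listed at 0 in all libraries, and the hepatocyte gene Ass1 at 2 to 18 counts, below the filter, and these 3 were chosen after their values were seen. How the authors counted reads that match several genes is not given, and its part in these values, or in those of Itgam and Ly6c2, was not tested.

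**Figure D4:**
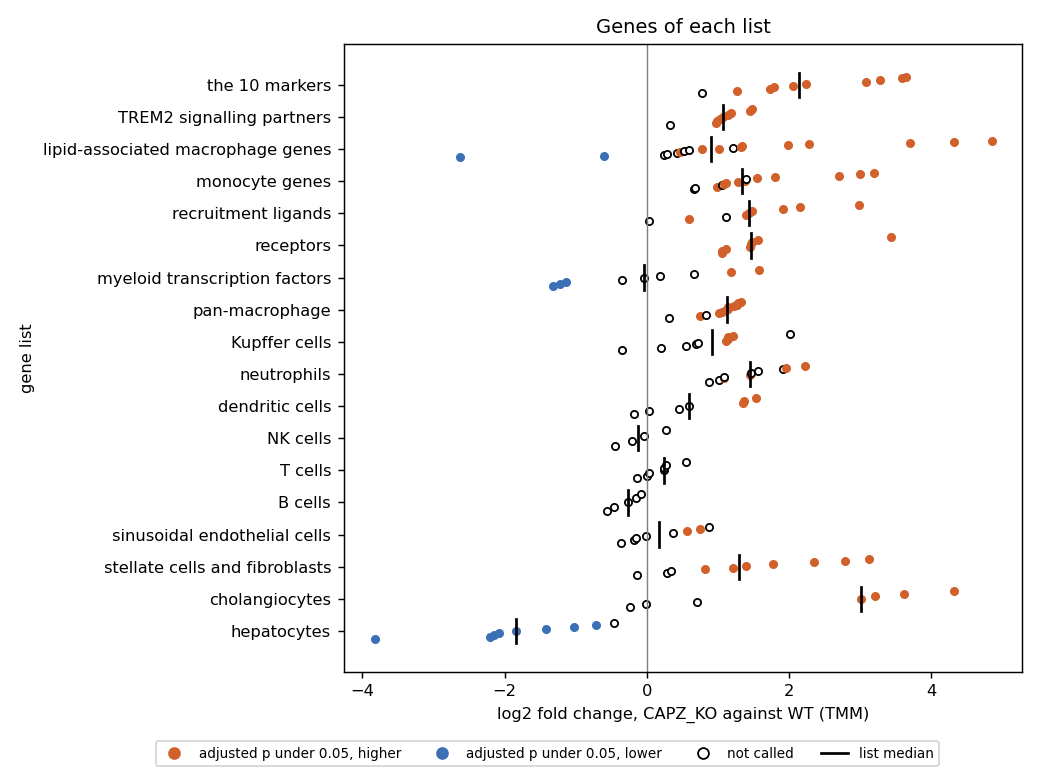
The log2 fold change (CAPZ_KO against WT, TMM scaling) of each tested gene, by list. Orange points rose and blue points fell at an edgeR adjusted p under 0.05, open points were not called, and bars are list medians; the 10 markers have a median of 2.15 and the pan-macrophage genes 1.13.

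The genes whose profile over the 8 libraries was most like that of a marker were ranked by the root mean square difference of log2(CPM + 0.5) values, each gene centred on its own mean, over 11833 genes. Nearest to Ccr2 were Scara3 (0.153), Ccr1 (0.262) and Enc1 (0.278). Nearest to Lgals3 were Bin2 (0.115), Dmpk (0.124) and Cyth4 (0.130), and nearest to Trem2 were Btg2 (0.227), Unc5b (0.245) and Emp1 (0.309). Nearest to Gpnmb were Ifi27l2b (0.361), Smpd3 (0.406) and H2-Q1 (0.426), the loosest match of the set, and nearest to Cd9 were Rhoc (0.171), Col12a1 and Frzb (both 0.187). For Cx3cr1 the nearest was Cldn4 (0.269), for Itgax Thbs1 (0.214), for Itgam Gal3st1 (0.164), for Ms4a7 Evc (0.160) and for Ly6c2 Cd274 (0.178).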

How the data were processed

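Poly(A) RNA of liver was sequenced in 8 stranded libraries. The authors deposited unscaled counts of reads for each symbol and library. The submitters' processing notes name the build mm10 and the tools STAR 2.5.3a, bcl2fastq, featureCounts, edgeR and R 3.3.1. Which annotation and strand setting they used, and how multi-mapped reads were treated, is not given in the sources used here.

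Genes passing filterByExpr (minimum count 10, minimum total 15) were scaled by TMM (factors 0.774 to 1.33) and tested with the quasi-likelihood test of edgeR 4.0.16 (R 4.3.3, limma 3.58.1), all 8 libraries, no covariate, Benjamini-Hochberg adjustment over 12985 genes, threshold 0.05. CPM are computed after TMM. The scale by marker counts replaced the TMM library scale in the same test. Library pairs differed beyond sampling noise (chi-square of at least 25.2 per degree of freedom). The labels call the replicates separate samples without stating separate animals, so p-values measure the spread between samples.

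The members and lists were chosen with earlier results of these data known. Named are all members, Capzb, the 4 genes of each list with the smallest p, and the 3 genes nearest to a member in profile; any other gene is marked as picked once its values were known. Some genes that the rule names are not reported here. On counts simulated for 12985 genes of CAPZ_KO against WT with TMM, the test recovered 1 of 50 genes changed 1.5-fold, 28 of 50 changed 2-fold, 43 of 50 changed 4-fold and 48 of 50 changed 8-fold, and called 4 of 12595 unchanged genes. The changed genes were drawn from those above a minimum mean count, equally raised and lowered, with most genes left unchanged. In the data many more genes changed, and recovery under that condition was not simulated. Alternatives were other scalings (with DESeq2 1.42.0 size factors), filters, DESeq2 and limma-voom tests, a replicate block, sex as a term and leaving out libraries. Positions are from GENCODE vM21 (GRCm38, which mm10 also names), which held 96.6% of tested symbols.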

Additional observations from a re-analysis of the deposited data

Results flagged for a closer look

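Among 68 groups of 4 libraries (each marker and each list sum, per group), 4 had a library far from the others, where chance gives about 1 in 20. Trem2 was at 12.5 CPM in CAPZ_KO 3, against 10.4 to 10.7 in the other CAPZ_KO libraries. Gpnmb was at 2.79 CPM in WT 4, against 0.142 to 0.536 in the other WT libraries, and Ms4a7 was at 6.68 CPM in WT 4, against 1.93 to 2.27. The summed galectins were at 1194 CPM in CAPZ_KO 3, against 1003 to 1028 in the other CAPZ_KO libraries.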

How the results depend on the processing

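The number of markers that rose stayed within 8 to 10 of 10 under all 20 alternatives, with 0 that fell. It was 10 with library sizes alone, where Ly6c2 had a log2 fold change of 1.39 and an adjusted p of 0.0115 and where the median of all tested genes shifted to 0.62, so that the markers should be read against that shift. Of the 200 values of single markers under these alternatives, 192 kept their side of the threshold, 6, all of Ms4a7, lost it and 2, both of Ly6c2, gained it. Called genes numbered 8365 with library sizes alone (7665 higher, 91.6% of calls, against 54.1% with TMM) and 3303 at an adjusted p under 0.01, against 5382, and the log2 fold change of Apoe was 0.0161 with library sizes alone, against −0.60. Leaving out 1 library gave 4485 to 5590 called genes, 8 to 10 markers, 90 to 114 genes of the other lists (106 with all libraries) and 4 to 8 markers per pan-macrophage count. Per pan-macrophage count the other alternatives gave 4 to 8 markers that rose, with 8 in a fit with the replicate block, which added Lgals3 and Itgam (adjusted p = 0.00495 and 0.033 in edgeR). With the replicate block, 9 markers rose by TMM and 5385 genes were called. The block also gave 7 Kupffer cell markers in place of 4, with Clec4f, Timd4 and the pan-macrophage gene Adgre1 called (adjusted p = 0.0309, 0.0177 and 0.00103 in edgeR). The labels do not say whether the numbers pair the libraries. Deviations of same-numbered libraries correlated at 0.245, 0.0251, 0.0847 and 0.301 across genes. WT 1, WT 3 and WT 4 each correlated best with the CAPZ_KO library of the same number. WT 2 correlated about equally with CAPZ_KO 3 (0.0301) and CAPZ_KO 2 (0.0251). A pairing was not tested, and the fits with and without the block are both given. Counts of 2 to 43 a library in WT limit the precision of Trem2 and Gpnmb. The same holds for Cx3cr1 (8 to 19 counts), Itgax (9 to 48), Ccr2 (11 to 53) and Ly6c2 (15 to 37).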
